A study of Mus musculus with 6 samples.

Results

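Interferon response genes were compared between T1 and T2 cells, a pair of tumor cell populations that differ in shape, growth and tumor formation. The set held 45 genes, taken by their symbols from the 24129 gene names of the table, and all 45 were found. The rule used no measured value, but the set was proposed with earlier results of these data known. By role, 4 encode receptor chains, 4 transcription factors, 2 feedback inhibitors, 4 sensors of viral nucleic acid, 5 membrane proteins that restrict viruses, 20 antiviral effectors and 6 interferon-inducible GTPases. RNA had been sequenced from 3 replicates of T1 cells (4T1A in the labels) and 3 replicates of T2 cells (4T1NA). Both populations carry GFP and descend from 4T1, a mammary carcinoma line of BALB/c mice, by way of a tumor grown in the mammary gland of a BALB/c mouse. T1 cells had low GFP, adhered with an epithelial shape, proliferated fast and were aggressive in mice, whereas T2 cells had high GFP, were round and loosely attached, proliferated slowly and were less aggressive. Both were kept in DMEM/F-12 medium with serum and antibiotics, and no interferon or other agent is named for either. T2 cells were passaged like a suspension culture and T1 cells were not, so population and way of culture cannot be told apart. As the study describes it, both came from GFP+ cells that had grown out of a sorted GFP- fraction of a resected primary tumor and were sorted again by GFP level, and no other isolate of either population is described. The replicates are called independent, but nothing says that they were separate cultures, and p-values would then measure only the spread between these samples. Parental 4T1GFP cells were not analysed here.

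Interferons are secreted proteins that warn cells of viral infection. Type I interferons bind the receptor chains Ifnar1 and Ifnar2 and type II interferon binds Ifngr1 and Ifngr2, and Janus kinases attached to these chains then phosphorylate STAT proteins. A complex of STAT proteins that holds Stat2 and Irf9 binds the interferon-stimulated response element (ISRE), and other STAT pairs bind the gamma-activated site (GAS). Their targets, the interferon-stimulated genes, encode proteins that degrade viral RNA, block viral entry or budding, and sense further viral RNA, and Socs1 and Usp18 shut the signal down. Many of these genes have a basal level in tumor cells without infection.

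Sequencing depth was similar in all libraries, with 18133227 to 20839686 reads on genes, so that 1 read stood for 0.928 to 1.06 normalized counts. A normalized count is the read count of a gene divided by a size factor of its library. The epithelial keratin genes Krt8 and Krt18 were high in both populations, at 17356 to 25833 normalized counts in every library, whereas the epithelial genes Epcam, Cdh1, Krt14 and Krt19 were far lower in T2 cells (34.7 normalized counts of Epcam against 3141 in T1 cells). The 10 leukocyte markers summed to 59.3 to 87.8 normalized counts in T1 and 97.4 to 131 in T2 libraries, most of it Cd68. The defining markers Tyrobp, Cd3e, Adgre1 and Siglech were at 0 in all 6 libraries, while Ptprc (CD45) had 0 reads in T1 and 14 in T2 cells and Cd79a 0 and 15. The 6 endothelial markers summed to 0 to 5.29 in T1 and 0 to 4.64 in T2 libraries. The 8 fibroblast markers summed to 225 to 241 in T1 and 997 to 1295 in T2 libraries, and most of each sum was Pdgfra, while Col3a1, Lum, Thy1 and Pdgfrb were at 0. The collagen genes of that list went the other way, with 69 reads of Col1a1 in T1 and 1 in T2 cells (log2 fold change 4.17) and 23 and 0 reads of Col1a2. The part of these marker genes in the differences below was not tested. In bulk samples fewer cells of a type and less RNA per cell cannot be told apart.

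Promoter sequences are shown for members that were higher and members that were lower in T1 cells. The ISRE is a known feature of many interferon-stimulated genes, and not every member is such a gene. Windows of 250 bases upstream of each RefSeq gene start (GRCm38.p6) were searched on both strands for GAAANNGAAA, the 2 GAAA repeats of the ISRE, and for TTCNNNGAA, the letters of the GAS, and matches of either kind may overlap. The 3 members with the largest rise in T1 cells and a match are Oas1a (chr5:120907526-120907775, minus strand), Ifit1 (chr19:34640639-34640888, plus strand) and Bst2 (chr8:71537473-71537722, minus strand). The members that were lower in T1 cells and had a match are Socs1 (chr16:10785537-10785786, minus strand), Ifitm2 (chr7:140955962-140956211, minus strand) and, by a GAS match only, Ifitm6 (chr7:141016893-141017142, minus strand). Each is written 5′ to 3′ on the strand of the gene and ends just before the gene start, with the matched letters in capitals (GAS letters in capitals only for Ifitm6).
Oas1a: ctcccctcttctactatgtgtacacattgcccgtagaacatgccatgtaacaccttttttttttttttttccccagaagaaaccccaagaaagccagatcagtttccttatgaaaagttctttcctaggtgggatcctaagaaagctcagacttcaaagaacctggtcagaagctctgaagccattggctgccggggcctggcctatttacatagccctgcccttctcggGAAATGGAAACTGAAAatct
Ifit1: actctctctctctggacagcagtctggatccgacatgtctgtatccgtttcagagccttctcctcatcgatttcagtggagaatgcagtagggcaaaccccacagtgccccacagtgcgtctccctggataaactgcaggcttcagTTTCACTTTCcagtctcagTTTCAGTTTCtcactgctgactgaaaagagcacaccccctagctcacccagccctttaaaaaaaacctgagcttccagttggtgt
Bst2: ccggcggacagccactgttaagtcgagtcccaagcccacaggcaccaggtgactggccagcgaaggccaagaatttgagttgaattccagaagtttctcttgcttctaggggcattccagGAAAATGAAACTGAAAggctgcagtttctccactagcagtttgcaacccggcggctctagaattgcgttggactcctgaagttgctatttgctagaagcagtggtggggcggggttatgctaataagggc
Socs1: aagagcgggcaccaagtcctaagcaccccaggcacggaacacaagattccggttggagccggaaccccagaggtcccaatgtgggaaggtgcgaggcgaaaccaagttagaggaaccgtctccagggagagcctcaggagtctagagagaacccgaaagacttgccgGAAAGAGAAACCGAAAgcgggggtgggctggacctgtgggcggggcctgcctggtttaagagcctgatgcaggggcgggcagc
Ifitm2: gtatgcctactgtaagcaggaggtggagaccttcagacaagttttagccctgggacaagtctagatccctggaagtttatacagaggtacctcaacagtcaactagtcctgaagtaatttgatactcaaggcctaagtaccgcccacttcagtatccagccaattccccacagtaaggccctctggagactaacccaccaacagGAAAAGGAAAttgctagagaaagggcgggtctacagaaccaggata
Ifitm6: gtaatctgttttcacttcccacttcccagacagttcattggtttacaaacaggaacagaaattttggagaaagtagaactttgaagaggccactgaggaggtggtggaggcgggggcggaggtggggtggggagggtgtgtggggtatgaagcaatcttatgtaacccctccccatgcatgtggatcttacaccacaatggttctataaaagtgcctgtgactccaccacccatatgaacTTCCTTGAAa
In Oas1a the ISRE letters began 20 and 14 bases before the gene start, sharing a GAAA, in Bst2 130 and 124 bases and in Socs1 83 and 77 bases before it. Ifit1 carried them on the opposite strand, at 104 and 85 bases, Ifitm2 had 1 match at 46 bases, and the GAS letters of Ifitm6 began 10 bases before the start. A GAS match in Bst2, at 136 bases, overlapped the ISRE letters, and Oas1a held a GAS match at 98 bases, apart from them. At the end of the Ifitm2 and Ifit1 windows, 26 and 18 bases lie in an exon of the GENCODE annotation. The Ifitm6 window lies wholly within the gene as GENCODE places it (chr7:141015699-141017924), with 16 bases in an annotated exon. The reference is that of C57BL/6J mice, and the cells are of BALB/c origin.

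A promoter was on hand for 36 of the 45 members, and 15 of these (41.7%) held the ISRE letters, against 3.46% of the 27025 genes with a promoter in the table and 2.99% of the genes tested. The GAS letters stood in 10 of 36 (27.8%), against 8.13% of all genes. Among members with a promoter, the ISRE letters stood in 6 of the 15 that were higher in T1 cells, in 2 of the 6 that were lower and in 2 of the 8 that did not pass the test. Past both filters they stood in 5 of the 8 higher members with a promoter and in 0 of the 3 lower. Among members not tested they stood in 5 of 7. At adjusted p alone, matches thus occurred in members of each kind, and all these groups are small. Oasl1 and Oasl2, whose differences were among the largest, had neither motif in this window, nor had Ifitm1 or Ifitm3. A match describes letters in a window and not a bound site.

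Most members that could be tested were higher in T1 cells, and the Ifitm genes stood out as lower. Of the 45 members, 31 averaged 10 or more normalized counts across the 6 libraries and were tested. At an adjusted p under 0.01, 17 of the 31 (54.8%) were higher in T1 cells, against 25.1% of all 11514 genes tested, and 6 (19.4%) were lower, against 24.4%. With a log2 fold change above 2 as well, 10 members (32.3%) were higher, against 4.17% of all genes, and 3 (9.68%) were lower, against 4.20%. The T1 and T2 values of 27 members (87.1%) did not overlap, against 68.1% of all genes, with T1 above T2 in 20 and below in 7. The median log2 fold change of the 31 was 1.14, with a range of -4.62 to 5.49, and that of all genes was -0.0055. In 7 of the 31 (Gbp3, Ifit1, Ifitm1, Ifitm6, Oas1a, Oasl2 and Rtp4) the mean of the lower population was under 10, so these passed the filter through the other population alone and had to differ. Of these 7, 6 were past both filters.

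**Figure D1:**
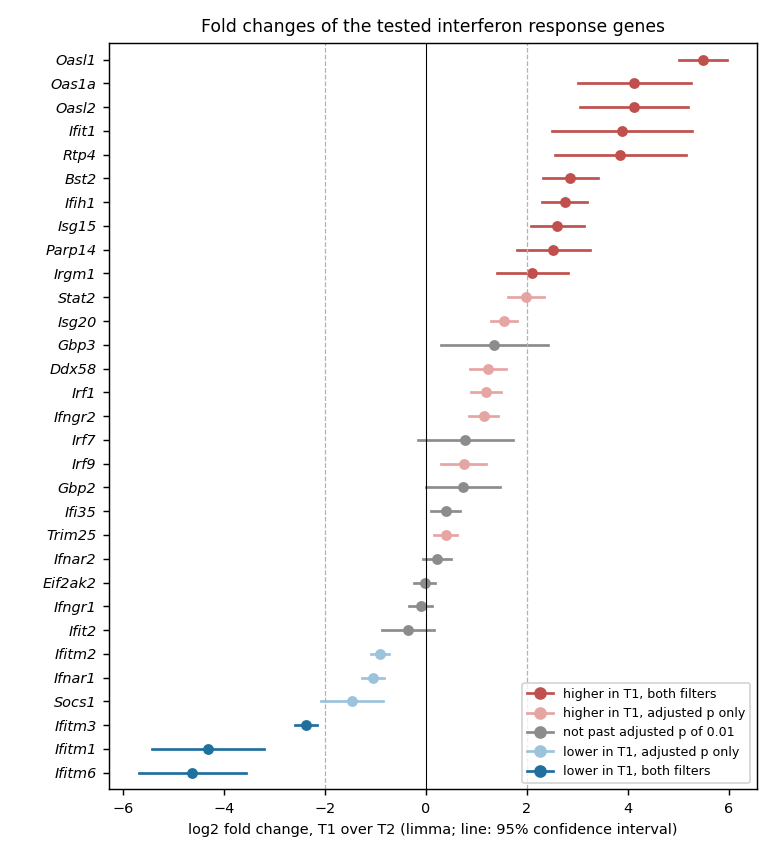
Log2 fold changes of T1 over T2 cells for the 31 tested interferon response genes (limma), sorted by size, with lines for the 95% confidence interval and dashed lines at -2 and 2. Oasl1 stands highest at 5.49, and Ifitm1 and Ifitm6 lie below -4.

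**Figure D2:**
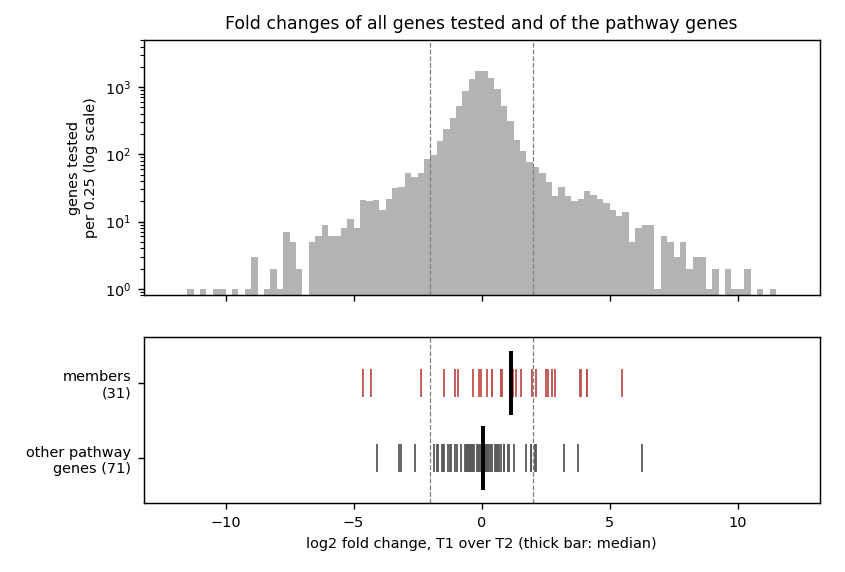
Top, number of genes tested in each bin of 0.25 log2 units of fold change (log scale, all 11514 genes). Bottom, 1 tick for each of the 31 tested members and of 71 other tested genes of the pathway, with thick bars at the medians of 1.14 and 0.046.

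The antiviral effectors formed the largest group of members that were higher in T1 cells. Of 20 effectors, 12 were tested, and 9 of these (75%, against 25.1% of all genes) were higher in T1 cells, 0 were lower (against 24.4%) and 3 (Ifit2, Eif2ak2 and Ifi35) did not pass. The 7 past both filters were Oasl1, Oas1a, Oasl2, Ifit1, Rtp4, Isg15 and Parp14, of which Oas1a, Oasl2, Ifit1 and Rtp4 had entered the test through T1 cells alone. Oasl1, an oligoadenylate synthetase-like protein known to restrain translation of Irf7, had 505, 561 and 556 normalized counts in T1 replicates 1, 2 and 3 and 9.79, 9.21 and 14.8 in the T2 replicates. All T1 libraries were close to each other and far above every T2 library. The means were 541 ± 31.2 (SD, n = 3) and 11.3 ± 3.10, a log2 fold change of 5.49 (SE 0.21, limma adjusted p = 1.9e-08). Its neighbour Oasl2 had 61.4, 74.4 and 138 normalized counts in T1 cells and 2.94, 2.05 and 9.28 in T2 cells (log2 fold change 4.12, SE 0.48, limma adjusted p = 3.82e-05). Oas1a, which makes the oligoadenylates that switch on the RNA-cutting enzyme RNase L, had 21.2, 35.3 and 76.1 in T1 cells and 0.979, 2.05 and 0.928 in T2 cells, so that T2 values were those of 1 or 2 reads (log2 fold change 4.13, SE 0.50, limma adjusted p = 4.95e-05). In both genes T1 replicate 3 was the highest library, and no T2 value reached a T1 value.

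Ifit1, which binds viral RNA that lacks the cap methylation of the host, had 22.2, 48.4 and 45.9 normalized counts in T1 cells and 4.90, 0 and 1.86 in T2 cells (log2 fold change 3.88, SE 0.62, limma adjusted p = 0.000341). Rtp4, a chaperone of membrane receptors that is induced by interferon, had 21.2, 41.9 and 45.9 in T1 cells and 2.94, 0 and 2.78 in T2 cells (log2 fold change 3.85, SE 0.58, limma adjusted p = 0.000226). Both were close to absent from T2 cells, and a fitted fold change of such genes depends on the pseudocount. Isg15, a ubiquitin-like protein that is attached to other proteins, had 83.6, 108 and 95.6 in T1 cells and 16.6, 13.3 and 14.8 in T2 cells (log2 fold change 2.60, SE 0.23, limma adjusted p = 6.09e-06). Parp14, an ADP-ribosyltransferase, had 94.2, 119 and 147 in T1 cells and 11.8, 22.5 and 28.8 in T2 cells (log2 fold change 2.52, SE 0.33, limma adjusted p = 7.64e-05). The replicates of each population were tight in Isg15 and wider in Parp14, without overlap in either.

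A further pair of effectors passed the p threshold with smaller differences. Isg20, an exonuclease that degrades RNA, had means of 710 ± 31.3 normalized counts (SD, n = 3) in T1 and 245 ± 24.0 in T2 cells (log2 fold change 1.54, limma adjusted p = 1.65e-06). Trim25, the ubiquitin ligase that acts on the sensor encoded by Ddx58, had 1767 ± 101 and 1353 ± 163 (log2 fold change 0.39, limma adjusted p = 0.00707). The Trim25 call was lost without T1 replicate 1 or 2 or T2 replicate 1 or 2 (log2 fold changes 0.29 to 0.43), with adjusted p-values of 0.00175 to 0.0331 over all alternatives. Eif2ak2, the RNA-activated kinase PKR, was level, with 783 ± 4.49 in T1 and 796 ± 62.8 in T2 cells and a 95% interval of the log2 fold change of -0.23 to 0.19. Ifit2, of the same gene cluster as Ifit1 on chromosome 19, had 212 ± 56.1 and 269 ± 57.6 (log2 fold change -0.36, 95% interval -0.86 to 0.15, limma adjusted p = 0.198). Within this cluster Ifit1 was far higher in T1 cells, and the values of Ifit2 overlapped. Ifi35, a partner of the protein encoded by Nmi, had 335 ± 32.8 and 254 ± 18.9 (log2 fold change 0.39, limma adjusted p = 0.0227).

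**Figure D3:**
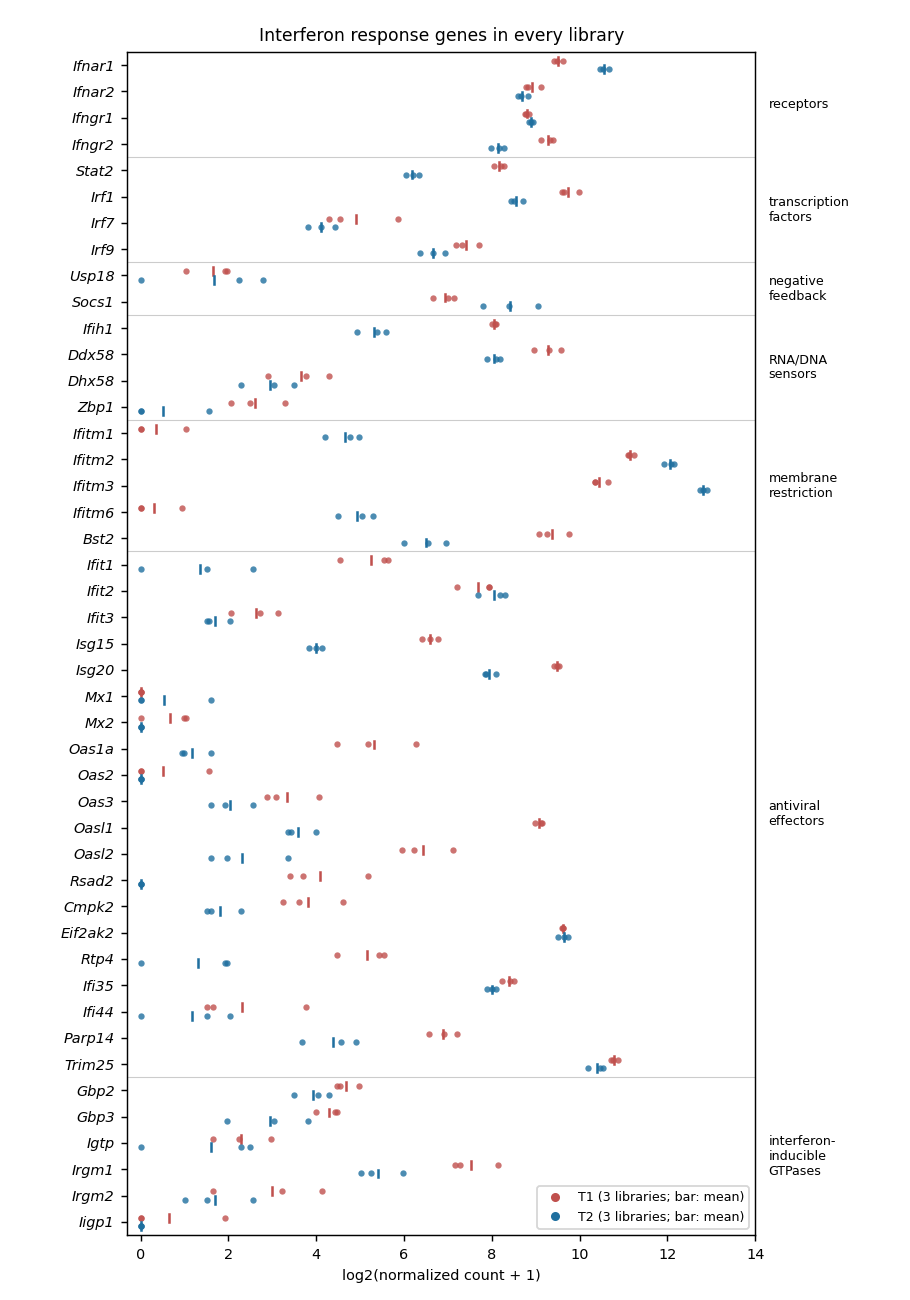
Log2(normalized count + 1) of all 45 interferon response genes in each of the 3 T1 and 3 T2 libraries (points), by role, with bars at the mean of each population. T1 points lie above T2 points for most effectors, and the 4 Ifitm genes show the opposite order.

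All 4 Ifitm genes, which encode small membrane proteins that keep enveloped viruses from fusing with the cell, were lower in T1 cells. Ifitm3, the member best known for blocking influenza virus, had 1297, 1308 and 1596 normalized counts in T1 replicates 1, 2 and 3 and 7151, 6891 and 7662 in the T2 replicates. The lowest T2 library lay far above the highest T1 library. The means were 1400 ± 169 (SD, n = 3) and 7234 ± 392, a log2 fold change of -2.37 (SE 0.09, limma adjusted p = 2.12e-08). Ifitm2 had 2399, 2182 and 2225 in T1 cells and 4571, 3870 and 4353 in T2 cells (log2 fold change -0.91, SE 0.08, limma adjusted p = 7.14e-06). Ifitm1 had 1.06, 0 and 0 in T1 cells, or 1 read in all, and 26.4, 17.4 and 30.6 in T2 cells. Ifitm6 had 0, 0.930 and 0 in T1 cells, again 1 read, and 21.5, 31.7 and 38.0 in T2 cells. Both were thus close to absent from T1 cells and at a low level in every T2 library. The ratio of T2 to T1 was 76.2 for Ifitm1 (exact 95% counting interval 13.3 to 3050) and 93.1 for Ifitm6 (16.3 to 3714), and these intervals cover counting error only. The fitted log2 fold changes were -4.31 for Ifitm1 (limma adjusted p = 3.51e-05) and -4.62 for Ifitm6 (limma adjusted p = 1.62e-05), and they depend on the pseudocount.

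Bst2, or tetherin, which holds budding viruses at the cell surface, differed from the Ifitm genes in direction. It had 542, 608 and 859 normalized counts in T1 cells and 92.0, 123 and 63.1 in T2 cells. Every T1 library lay above every T2 library. The log2 fold change was 2.86 (SE 0.24, limma adjusted p = 4.08e-06). Of the 5 membrane members, 1 (20%, against 25.1% of all genes) was higher and 4 (80%, against 24.4%) were lower in T1 cells, and Ifitm1 and Ifitm6 had entered the test through T2 cells alone.

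Per kilobase of exon, the order of the Ifitm genes differed between the populations. Ifitm2 stood at 3463 and Ifitm3 at 2065 normalized counts per kilobase in T1 cells, and Ifitm3 at 10670 and Ifitm2 at 6511 in T2 cells. The log2 ratio of Ifitm3 to Ifitm2 per kilobase was -0.94, -0.79 and -0.53 in the T1 replicates and 0.60, 0.78 and 0.77 in the T2 replicates. Ifitm2 led in each T1 library and Ifitm3 in each T2 library (two-sided p = 0.1 by an exact permutation test, which cannot go lower with 3 against 3). Ifitm6 at 33.6 and Ifitm1 at 22.7 followed far below in T2 cells. The 4 genes lie within 63.1 kilobases of each other, at chr7:140954837-141017924 of GRCm38. Their sequences are alike, and reads shared between them could have been split or dropped in counting, so the order within the family is uncertain.

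**Figure D4:**
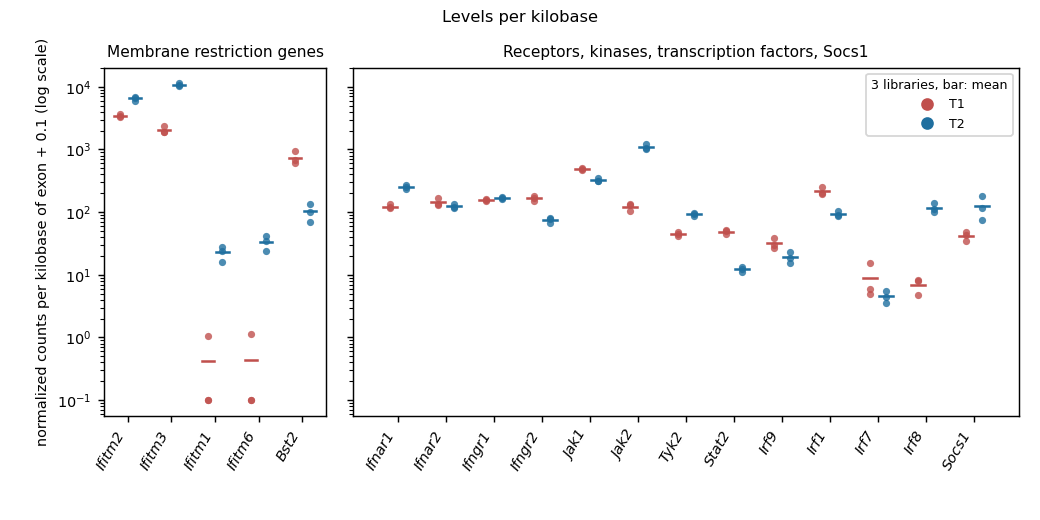
Levels in normalized counts per kilobase of exon (plus 0.1, log scale) of membrane restriction genes (left) and of receptors, kinases, transcription factors and Socs1 (right), with points for the 3 libraries of each population and bars at their mean. Ifitm2 and Ifitm3 change places between T1 and T2 cells, and Jak2 and Irf8 are far higher in T2 cells.

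The receptor chains were expressed at similar levels per length in T1 cells, and less evenly in T2 cells. Ifnar1 had 682, 711 and 786 normalized counts in T1 replicates 1, 2 and 3 and 1485, 1402 and 1619 in the T2 replicates (log2 fold change -1.05, SE 0.10, limma adjusted p = 6.45e-06). Its partner Ifnar2 had 454, 440 and 556 in T1 cells and 449, 384 and 406 in T2 cells (log2 fold change 0.22, 95% interval -0.06 to 0.50, limma adjusted p = 0.154). Of the type I receptor, the Ifnar1 chain was thus lower in T1 cells without overlap, and the values of the Ifnar2 chain overlapped. Ifngr2 had 640, 672 and 556 in T1 cells and 288, 251 and 307 in T2 cells (log2 fold change 1.14, SE 0.13, limma adjusted p = 2.48e-05). Ifngr1, the chain that binds type II interferon, had 437, 457 and 433 in T1 cells and 474, 490 and 462 in T2 cells (log2 fold change -0.10, 95% interval -0.33 to 0.12, limma adjusted p = 0.392). In the type II receptor the Ifngr2 chain was higher in T1 cells, while the Ifngr1 values lay within a narrow range in all 6 libraries.

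In T1 cells the 4 chains stood at 122 (Ifnar1), 145 (Ifnar2), 155 (Ifngr1) and 165 (Ifngr2) normalized counts per kilobase. In T2 cells Ifnar1 stood at 253, Ifngr1 at 167, Ifnar2 at 124 and Ifngr2 at 74.8. The ratio of Ifnar1 to Ifnar2 per kilobase was 0.846 in T1 and 2.04 in T2 cells, and that of Ifngr1 to Ifngr2 0.942 and 2.24, without overlap of the replicates in either (two-sided p = 0.1 for each by an exact permutation test). Ifnar2, Il10rb, Ifnar1 and Ifngr2 lie within 193 kilobases at chr16:91372783-91565623, so genes of 1 cluster differed in opposite directions.

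Of the 4 transcription factors among the members, 3 (75%, against 25.1% of all genes) passed the test and were higher in T1 cells. Irf8 and Irf2, outside the set, passed it and were lower (log2 fold changes -4.09 and -0.61). Stat2, the STAT protein used by type I but not type II interferon, had 293, 264 and 307 normalized counts in T1 cells and 64.6, 72.7 and 79.8 in T2 cells. These values are far apart, and the log2 fold change of 1.98 (SE 0.16, limma adjusted p = 2.43e-06) lay just below the limit of 2. It was above that limit without T1 replicate 2 (2.04) or T2 replicate 3 (2.05). Irf1, an activator of genes that respond to type II interferon, had 1007, 799 and 773 in T1 cells and 361, 418 and 343 in T2 cells (log2 fold change 1.19, SE 0.13, limma adjusted p = 2.39e-05). Irf9, the DNA-binding partner of Stat2, had 145, 159 and 208 in T1 cells and 101, 122 and 81.7 in T2 cells. Its log2 fold change was 0.75 (SE 0.20, limma adjusted p = 0.00892), and the call was lost on leaving out any library but T2 replicate 2 (0.60 to 0.85), with adjusted p-values of 0.0028 to 0.038 over all alternatives. Irf7, which drives interferon alpha genes, had 22.2, 18.6 and 57.6 in T1 cells and 20.6, 16.4 and 13.0 in T2 cells. Only T1 replicate 3 stood apart, and the log2 fold change was 0.78 (95% interval -0.15 to 1.72, limma adjusted p = 0.129), or 0.30 without that library.

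Of the feedback inhibitors, Socs1 was lower in T1 cells and Usp18 was barely detected. Socs1, which blocks Janus kinases, had 141, 100 and 127 normalized counts in T1 cells and 335, 527 and 220 in T2 cells. The T2 libraries were widely spread but all lay above the T1 libraries (log2 fold change -1.47, SE 0.28, limma adjusted p = 0.000942). Usp18, which removes Isg15 from proteins and blocks Ifnar2, had 1.06, 2.79 and 2.93 in T1 cells and 5.88, 0 and 3.71 in T2 cells, too low to be tested.

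Of the 4 sensors, 2 were tested, and both (100%, against 25.1% of all genes) were higher in T1 cells. Ifih1 (MDA5), which binds long double-stranded RNA, had 254, 273 and 267 normalized counts in T1 cells and 47.0, 41.0 and 29.7 in T2 cells (log2 fold change 2.75, SE 0.20, limma adjusted p = 1.32e-06). Ddx58 (RIG-I), which binds short RNA with a triphosphate end, had 500, 634 and 761 in T1 cells and 238, 271 and 289 in T2 cells (log2 fold change 1.23, SE 0.16, limma adjusted p = 7.48e-05). Neither gene had overlapping values. Dhx58 (LGP2), a regulator of both, had 12.7, 6.51 and 18.5 in T1 cells and 3.92, 7.17 and 10.2 in T2 cells and was not tested. Zbp1, a sensor of Z-form nucleic acid, had 17 reads in T1 and 2 in T2 cells, a ratio of 8.59 (exact 95% counting interval 2.04 to 76.6).

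Of the interferon-inducible GTPases, which attack the vacuoles of intracellular parasites, 3 of 6 were tested. Irgm1 had 153, 141 and 282 normalized counts in T1 cells and 31.3, 36.9 and 62.2 in T2 cells (log2 fold change 2.11, SE 0.32, limma adjusted p = 0.00021). The values did not overlap, and the log2 fold change was below 2 without T1 replicate 3 (1.80) or T2 replicate 1 (1.91). Gbp2 had means of 24.8 ± 5.09 (SD, n = 3) and 14.7 ± 4.23, with a limma adjusted p of 0.0736. Gbp3 had 18.8 ± 3.45 and 7.70 ± 5.05, with a limma adjusted p of 0.0291. Neither passed the threshold, although no T2 value of either reached a T1 value.

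Low levels kept 14 members out of the test, among them genes that are usually strong markers of an interferon response. Mx1 and Mx2, GTPases that trap viral components, had at most 2.05 normalized counts in any library. Oas2 was seen in T1 replicate 3 alone at 1.95, and Iigp1 in T1 replicate 2 alone at 2.79. Rsad2 (viperin), which makes a nucleotide that stops viral RNA synthesis, had 9.52, 12.1 and 35.1 in T1 cells and 0 in all T2 libraries. With 58 reads against 0 its level in T1 cells was at least 6.45-fold higher, counted against a floor of 3 reads in each T2 library. Its neighbour Cmpk2, a nucleotide kinase of mitochondria, had 8.46, 11.2 and 23.4 in T1 cells and 3.92, 2.05 and 1.86 in T2 cells. The pair lies within 37.1 kilobases at chr12:26442746-26479837, and both were higher in each T1 library than in any T2 library. Oas3 had 9.80 ± 5.06 and 3.24 ± 1.48 (SD, n = 3), Irgm2 9.03 ± 7.26 and 2.59 ± 2.04, and Ifit3 5.52 ± 2.32 and 2.30 ± 0.674. Ifi44 had 5.55 ± 6.18 and 1.64 ± 1.55 and Igtp 4.22 ± 2.40 and 2.85 ± 2.50. When all genes with a read were tested, Rsad2 (log2 fold change 4.09), Cmpk2 (2.01) and Zbp1 (2.10) passed both thresholds by limma and the other 11 did not pass the p threshold.

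Over all 31 tested members, T1 replicate 3 was the highest T1 library in 14 (45.2%), against 41.4% of all genes tested. Of the 17 members that were higher in T1 cells, T1 replicate 3 was the highest T1 library in 9 (52.9%), against 39.5% of all genes that were higher in T1 cells. The ratio of its value to the mean of the other T1 libraries was taken with 1 normalized count added to each. The median of this ratio was 1.29 over these 17, against 0.993 over all genes higher in T1 cells. Among the 10 past both filters this ratio ran from 0.999 to 2.64 (median 1.41). The mean log2 level of the 17 was 7.62, 7.88 and 8.11 in T1 replicates 1, 2 and 3 and 5.38, 5.22 and 5.50 in the T2 replicates. These 17 were chosen by that very difference, so the gap between the populations is a description. Without T1 replicate 3, 16 members were higher in T1 cells (Irf9 was lost) and 9 were past both filters (Irgm1 was lost).

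Of 117 other genes of the pathway, 71 were tested, of which 20 (28.2%) were higher and 23 (32.4%) lower in T1 cells, against 25.1% and 24.4% of all genes. No interferon gene was tested. Of 10 ligand genes, 8 had no read in any library, and Ifnb1 had 2 reads in T1 replicate 3 and Ifnk 1 read in T2 replicate 3. Of 10 other genes of receptors, kinases, STAT proteins and regulators of their signal, 4 were higher and 3 lower. Of 7 tested genes of IRF proteins and proteins that bind them, 2 were higher and 3 lower. Of 13 genes of nucleic acid sensing, 2 were higher and 5 lower. Among 34 other interferon-stimulated targets, 12 were higher in T1 cells and 7 were lower. Of 7 tested neighbours and paralogs of the members, 0 were higher and 5 lower.

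The kinases that serve these receptors differed from each other in direction. Jak2, which works with Ifngr2, had 644, 520 and 688 normalized counts in T1 cells and 5179, 5309 and 6107 in T2 cells (log2 fold change -3.17, SE 0.11, limma adjusted p = 1.08e-08). Jak1, used by both receptors, had 3430, 3582 and 3685 in T1 cells and 2292, 2283 and 2505 in T2 cells (log2 fold change 0.60, limma adjusted p = 5.95e-05). Tyk2, the partner of Ifnar1, had 285, 301 and 334 in T1 cells and 664, 638 and 604 in T2 cells (log2 fold change -1.05, limma adjusted p = 1.85e-05). Jak2 and Tyk2 were thus lower in T1 cells along with Ifnar1, and Jak1 was higher.

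Other genes past both filters are named for comparison. Higher in T1 cells were Ly6e, a lipid-anchored surface protein (505 ± 91.7 against 6.07 ± 3.58 normalized counts, SD, n = 3), and Ifnlr1, the receptor chain of type III interferon (188 ± 20.4 against 13.0 ± 3.29). Also higher were Ddx60 (38.6 ± 15.3 against 3.22 ± 1.35), Apol9b (262 ± 81.0 against 58.1 ± 9.30) and Psmb8, a subunit of the immunoproteasome (137 ± 60.2 against 31.1 ± 14.1). The log2 fold changes of Apol9b and Psmb8 were 2.12 and 2.09, and 1.88 and 1.77 without T1 replicate 3. That of Psmb8 was also below 2 without T2 replicate 1 (1.97) or T2 replicate 2 (1.88). Lower in T1 cells were Irf8, a factor best known in myeloid cells (48.4 ± 13.0 against 825 ± 145), Ifi203 (575 ± 76.0 against 5485 ± 1146) and Lgals3bp (100.1 ± 59.4 against 548 ± 62.3). Ifi203 and its neighbours Ifi202b (log2 fold change -1.88) and Mnda (-0.58) on chromosome 1 were all lower in T1 cells, and as close relatives they may share reads. The adaptors of the sensors differed little. Mavs, the adaptor of the RNA sensors, had 796 ± 28.9 in T1 and 1016 ± 53.8 in T2 cells, and Tmem173 (STING) had 415 ± 42.9 and 591 ± 6.56. Their log2 fold changes of -0.35 and -0.51 passed the p threshold over all libraries. The call of Mavs was lost without any library but T1 replicate 3 (-0.39 to -0.32) and that of Tmem173 without T1 replicate 2 or T2 replicate 1 or 3 (-0.51 to -0.43). Irf3 (798 ± 88.0 and 676 ± 46.3) and Mb21d1, or cGAS (629 ± 107 and 608 ± 91.9), did not pass it.

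Several members overlap or resemble other genes. For example, the annotation places Irf1, Irf7, Oasl1 and Rtp4 over a gene on the opposite strand, and Irf9, Parp14, Ifitm2 and Ifnar2 over a gene on their own strand, and the strand setting of the counting is not given in the sources used here. Reads of such partners could not be told apart. Oas1a has a close copy in Oas1g (24 reads in T1 and 1 in T2 cells), and Ifit3 has one in Ifit3b, so levels of these genes are uncertain where reads could map to both.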

How the data were processed

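RNA sequencing values of 3 T1 and 3 T2 samples were used, grouped by their labels. The authors trimmed reads with Trimmomatic, aligned them to mm10 with TopHat2, counted them with HTSeq and divided the counts by DESeq2 size factors, so the deposited signal is a normalized count per gene. Versions, annotation and strand setting are not given in the sources used here. No column of values was left out. Dates stand in place of 27 gene names, and all 45 members were found. Every value was a whole number of reads once the factor was removed (100% at a tolerance of 0.01 read).

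The values were compared with limma 3.58.1 (R 4.3.3), with a variance trend, on log2(normalized count + 1) over genes with a mean of at least 10, and p-values were adjusted by Benjamini and Hochberg over all 11514 genes. Following the study's filters, an adjusted p under 0.01 and a log2 fold change beyond 2 were used together ("both filters"). A fold change on this scale understates the change of low genes. On the whole reads, edgeR 4.0.16 and DESeq2 1.42.0 each called 974 genes past both filters, against 964 by limma, and 956 of each were shared with limma. The fits were run on simulated counts with the same dispersion for every gene. This does not show how they perform on genes whose replicates spread more widely. Alternatives were the pseudocount (0.5, 5), the filter (none, 50), quantile normalization, both count tests, a block for the replicate number, and leaving out each library.

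Members and gene lists were chosen with earlier results of these data known. All members may be named. Values in every sample are given for members past both filters, receptors, transcription factors, feedback inhibitors, and tested sensors and membrane members. Of other pathway genes, those past both filters are named, and Jak1, Tyk2, Irf3, Mavs, Tmem173 and Mb21d1 whatever their values. Another gene of that rule is not reported here. Genes added after their values were seen are Il10rb, Irf2, Ifi202b, Mnda, Oas1g, Ifit3b, Ifnb1 and Ifnk. Positions and exonic lengths (all annotated exons of a gene) are from GENCODE vM21 (GRCm38, the build of mm10) and promoters from RefSeq. Figures were drawn with matplotlib 3.10.9.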

Additional observations from a re-analysis of the deposited data

How the results depend on the processing

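The counts of members called at adjusted p were 17 higher and 6 lower in T1 cells, and over all alternatives run they ran from 13 to 19 and from 4 to 6. When the filter was raised to a mean of 50, 6 members were higher and 1 was lower past both filters, against 10 and 3, because the 6 others (Ifit1, Ifitm1, Ifitm6, Oas1a, Oasl2 and Rtp4) were no longer tested. The pseudocounts, quantile normalization, edgeR and DESeq2 left the call at adjusted p of each of the 31 tested members as it was. Leaving out each library in turn gave 15 to 17 members higher and 5 to 6 lower, and 9 to 12 higher and 2 to 3 lower past both filters. Ifitm1 fell below the filter without T2 replicate 1 or 3. The direction turned only in genes near 0 that were not called, in Mb21d1 (-0.0573 without T1 replicate 1 and -0.0387 without T2 replicate 3, with 0.188 as the highest value) and in Eif2ak2 (0.0338 without T2 replicate 3, with -0.0802 as the lowest). With the replicate number as a block, 16 members were higher, as Irf9 was lost (limma adjusted p = 0.0109, against a range of 0.0028 to 0.038 over its alternatives), and no other member's call changed. Irf9 was also lost without the filter (limma adjusted p = 0.0134). Libraries of the same number correlated by 0.0575, 0.172 and 0.104 in their deviations from the group means. Pairs of unlike number ran from -0.152 to 0.0719, the highest being T2 replicate 1 with T1 replicate 3. Whether the numbers pair the samples was not tested, and the main fit held no term for them. Depth limits Ifitm1, Ifitm6, Oas1a, Oasl2, Ifit1, Rtp4, Gbp3 and the 14 untested members, where the lower value rests on few reads.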
